A study of Bos taurus with 35 samples.

Results

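The solute carrier genes described here are the 48 genes whose symbol, in the supplementary list of DE genes that goes with the study, starts with SLC and a digit. They were matched by Ensembl ID to a count table of 27607 genes, and all 48 were among the 14630 genes that passed the filter on low counts. That list holds genes found DE at 6, 24, 48 or 72 h against 0 h, so the contrasts against 0 h chose these 48 genes, and their values in those contrasts are given as a description without a test. Of the 48 genes, 31 encode carriers of the plasma membrane, 12 encode proteins of intracellular membranes and 5 belong to the mitochondrial SLC25 family. Solute carriers are membrane proteins that move small molecules such as sugars, amino acids, organic acids, ions, metals and vitamins. Most work at the cell surface, whereas the SLC25 proteins serve the mitochondrion and the SLC35 proteins bring nucleotide sugars into the endoplasmic reticulum and the Golgi apparatus. In skeletal muscle, carriers take up glucose and amino acids, pass lactate and protons across the membrane of the fibre, and hold the ion gradients on which contraction depends.

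The study asked how far the muscle transcriptome changes with time *post-mortem*. The samples were cores of *longissimus thoracis et lumborum* (*LT*), the loin muscle, from 7 untreated British × Continental crossbred beef heifers weighing 525 to 635 kg and finished on a barley grain diet. Each left carcass side was sampled 45 min after death (0 h) and again after 6, 24, 48 and finally 72 h while it hung in the drip cooler, and each core became 1 RNA-Seq library, which gave 7 libraries per time point and 35 in all. The 5 libraries of an animal are separate cores of the same carcass, and the 0 h cores, the reference of the contrasts against 0 h, were themselves taken after slaughter. Levels are CPM, counts scaled to a common library size with TMM factors, a share of each library rather than an amount of RNA. A gene was called DE at a false discovery rate (FDR) below 0.05 and a fold change above 1.5 in either direction, by the quasi-likelihood test of edgeR, with the animal as a block and p-values adjusted over the 14630 genes (Benjamini-Hochberg). Errors of levels are SD over 7 animals and errors of log2 fold changes are standard errors of the fit.

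The libraries held 20568418 to 104275821 counts (median 40133660), so that 1 CPM stood for between 20.6 and 104 reads. Of 10 muscle fibre genes, the 2 with a symbol in the list, CKM (muscle creatine kinase) and TNNT3 (fast troponin T), were at 12386 ± 1079 and 11508 ± 933 CPM at 0 h, and both were called higher at 72 h. Markers of other cells could likewise be named only where they were in the list of DE genes. Those without a change are therefore not seen, and the calls of the named ones were largely set by that choice. Of 12 adipocyte genes, 11 were named, and 8 of them were called lower at 24 h and 11 at 48 and 72 h. Of 8 macrophage genes, 7 were named, of which 5 were lower at 48 h and 7 at 72 h, when their summed level was 16 to 53 CPM against 47.1 to 155 CPM at 0 h. Of 9 T and NK cell genes, 7 were named and all 7 were higher at 72 h (11.4 to 15.4 CPM summed, against 5.28 to 10.8 CPM at 0 h). Both named fibroblast genes of 7 were lower at 72 h (61.2 to 161 CPM, against 152 to 323 CPM at 0 h). Both named erythroid genes of 3 were called higher at 48 h alone, the libraries spanning 0.126 to 72.1 CPM then. No endothelial or melanocyte marker was named. The part of these cells in the carrier values was not tested.

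Carrier genes called lower outnumbered those called higher from 48 h onward. At 6 h, 1 of the 48 genes was called, and it was higher (0.533% of all genes tested were called at 6 h, 0.349% higher and 0.185% lower). By 24 h there were 3 called higher and 3 lower (1.67% of all genes, 0.725% higher and 0.95% lower). By 48 h there were 7 and 24 (9.26% of all genes, 2.96% higher and 6.3% lower), and by 72 h 12 and 35 (25.2% of all genes, 9.8% higher and 15.4% lower). Nothing is read from these shares, since the same contrasts chose the genes. The list of genes downregulated at 72 h was used only in part, so carrier genes in the rest of it would add to the lower count and move the medians. The median log2 fold change of the 48 genes moved from -0.04 (6 h) through -0.14 (24 h) and -0.59 (48 h) to -0.79 (72 h), beside medians of -0.00 to 0.01 over all genes tested. By first call, 1 gene was higher from 6 h, 2 were higher and 3 lower from 24 h, 4 were higher and 21 lower from 48 h, and 5 were higher and 12 lower from 72 h. The 7 CPM values at 72 h did not overlap the 7 values at 0 h for 18 of the 48 genes, 3 lying above and 15 below (18% of all genes did not overlap, 7.9% above and 10.1% below). At 48 h this held for 8 of the 48, 2 above and 6 below (6.45% of all genes, 3.11% above and 3.34% below). Because RNA came from whole cores, fewer cells of a type and less RNA per cell cannot be told apart in any of these values. Scaling by library totals alone gave 5 higher and 36 lower at 72 h, with the median of all genes at -0.16 on the log2 scale, in place of 12 and 35.

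The gene nearest the fold threshold among those called at 72 h was SLC33A1 (log2 fold change -0.59 ± 0.07), followed by SLC39A9 (-0.61 ± 0.06) and, among the genes called higher, SLC45A2 (0.61 ± 0.14). SLC9A7, at -0.64 ± 0.30, was the 1 carrier gene not called at 72 h. It had been called lower at 48 h (-1.03 ± 0.32), and it rests on at most 27 reads in any library. Low counts were common in the set. Of the 48 genes, 13 had a mean under 1 CPM, of which 5 were called higher and 7 lower at 72 h. A further 25 had a mean of 1 to 10 CPM, with 4 higher and 21 lower, and 10 had a mean over 10 CPM, with 3 higher and 7 lower.

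**Figure D1:**
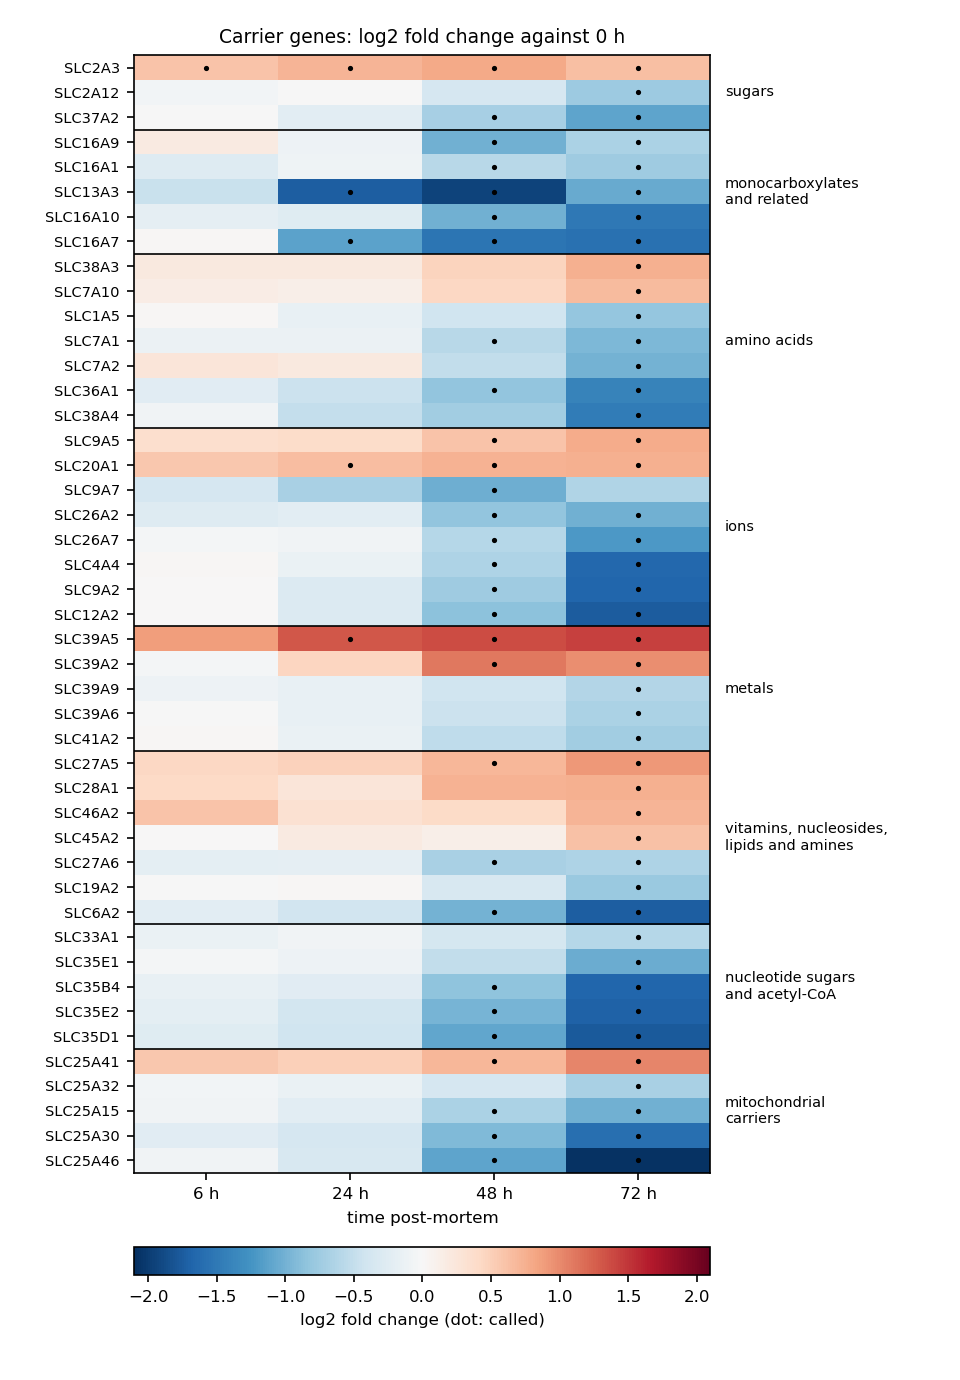
Log2 fold change against 0 h of 45 solute carrier genes at the 4 later time points, grouped by substrate, with red for higher, blue for lower and a dot where a gene was called. Only SLC2A3 carries a dot at 6 h, and most blue cells deepen between 24 and 72 h, with SLC25A46 lowest at -2.08.

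Contrasts between neighbouring time points were not those of the list, and they were tested across all genes. They share samples with the contrasts of the list, however. The genes were chosen for later values that differ from 0 h, so that choice favours calls here too. Nothing is therefore read from the shares of carrier genes called beside those of all genes. Between 6 and 24 h, 1 carrier gene fell, SLC16A7, and none rose (0.547% of all genes were called, 0.54% fell and 0.00684% rose). Between 24 and 48 h, 8 fell and 1 rose (2.26% of all genes were called, 1.88% fell and 0.376% rose). The 8 genes were SLC16A9, SLC16A10, SLC7A2, SLC26A2, SLC25A46, SLC35B4, SLC35D1 and SLC35E2, and the gene that rose was the zinc importer gene SLC39A2. Between 48 and 72 h, 10 fell and none rose (4.51% of all genes were called, 3.73% fell and 0.786% rose). They included SLC12A2, SLC4A4, SLC9A2, SLC26A7, SLC25A30, SLC25A46, SLC35B4, SLC35D1 and SLC35E2. Thus 4 genes, SLC25A46 and the 3 SLC35 genes, fell in both of the later intervals, while the ion carrier genes SLC12A2, SLC4A4, SLC9A2 and SLC26A7 fell in the second alone by this threshold. The difference between the intervals was not tested. Where edgeR called none higher, 1 carrier gene between 6 and 24 h and 5 between 48 and 72 h were higher at an unadjusted p under 0.05, while DESeq2 and limma voom called 0 in the first case and 1 in the second. The FDR without the fold limit, by the same test, gave 3 higher and 18 lower carrier genes between 24 and 48 h, and 1 higher and 20 lower between 48 and 72 h.

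The carrier genes called higher early were SLC2A3, SLC20A1 and SLC39A5, which transport glucose, phosphate and zinc. SLC2A3 (ENSBTAG00000004556) encodes GLUT3, a glucose transporter of high affinity. Its level ran from 8.9 through a median of 18.9 to 40.4 CPM at 0 h, from 17.2 through 32.7 to 51.6 CPM at 6 h, and from 17.7 through 30.9 to 70.4 CPM at 24 h. At 48 h it was 15.4, 34.3 and 78 CPM (lowest, median, highest), and at 72 h 8.85, 34.5 and 62.1 CPM. The ranges overlapped at every time point, since the animals differed widely, but SLC2A3 was higher than at 0 h in all 7 animals at 6, 24 and 48 h and in 6 of 7 at 72 h. The log2 fold changes against 0 h were 0.61 ± 0.12, 0.72 ± 0.12, 0.80 ± 0.12 and 0.63 ± 0.12. None of the later steps of SLC2A3 was called by edgeR's quasi-likelihood test (adjusted p = 0.88, 0.68 and 0.3). The 6 h call was lost without animal 103 (0.54) or animal 201 (0.58), as the fold then fell short of the threshold, and with library totals alone the 72 h value was 0.46 and not called.

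SLC20A1 (ENSBTAG00000007895) encodes PiT1, a sodium-coupled phosphate transporter. Its lowest, median and highest levels were 42.5, 59.8 and 72.8 CPM at 0 h, 64.9, 86.3 and 126 CPM at 6 h, and 66.6, 93.8 and 127 CPM at 24 h. At 48 h they were 79.9, 88.7 and 132 CPM, and at 72 h 53.1, 103 and 145 CPM. All 7 animals were above their own 0 h level at each later time point, and the 48 h values lay wholly above the 0 h values. Its log2 fold change was 0.57 ± 0.11 at 6 h, just short of the fold threshold, then 0.64, 0.73 and 0.74, each ± 0.11. Library totals alone gave 0.57 at 72 h, under the fold threshold. SLC39A5 (ENSBTAG00000002799) encodes the zinc importer ZIP5 and had only 3 to 49 reads per library. Its levels were 0.121, 0.145 and 0.314 CPM at 0 h, 0.229, 0.349 and 0.533 CPM at 6 h, and 0.273, 0.486 and 0.875 CPM at 24 h. At 48 h they were 0.277, 0.565 and 0.649 CPM, and at 72 h 0.209, 0.491 and 0.911 CPM. The later values were above those at 0 h in all 7 animals from 24 h onward, yet the ranges overlapped. At 6 h its log2 fold change was 0.88 ± 0.26, at 24 h 1.30 ± 0.24, and at 72 h 1.44 ± 0.24. For all 3 genes most of the difference from 0 h was present by 24 h, which follows in part from picking genes called by then.

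SLC9A5, the sodium and proton exchanger gene NHE5, moved more evenly. It was at 60.8 ± 11.3 CPM at 0 h, 77.4 ± 15.3 CPM at 6 h, 79.9 ± 20.7 CPM at 24 h, 91.8 ± 15.5 CPM at 48 h and 104 ± 18.7 CPM at 72 h. The 48 and 72 h values did not overlap those at 0 h, and all 7 animals were above 0 h at every time point. Between 24 and 48 h its log2 difference was 0.22 ± 0.08 (adjusted p = 0.043 by edgeR's quasi-likelihood test), below the fold threshold.

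**Figure D2:**
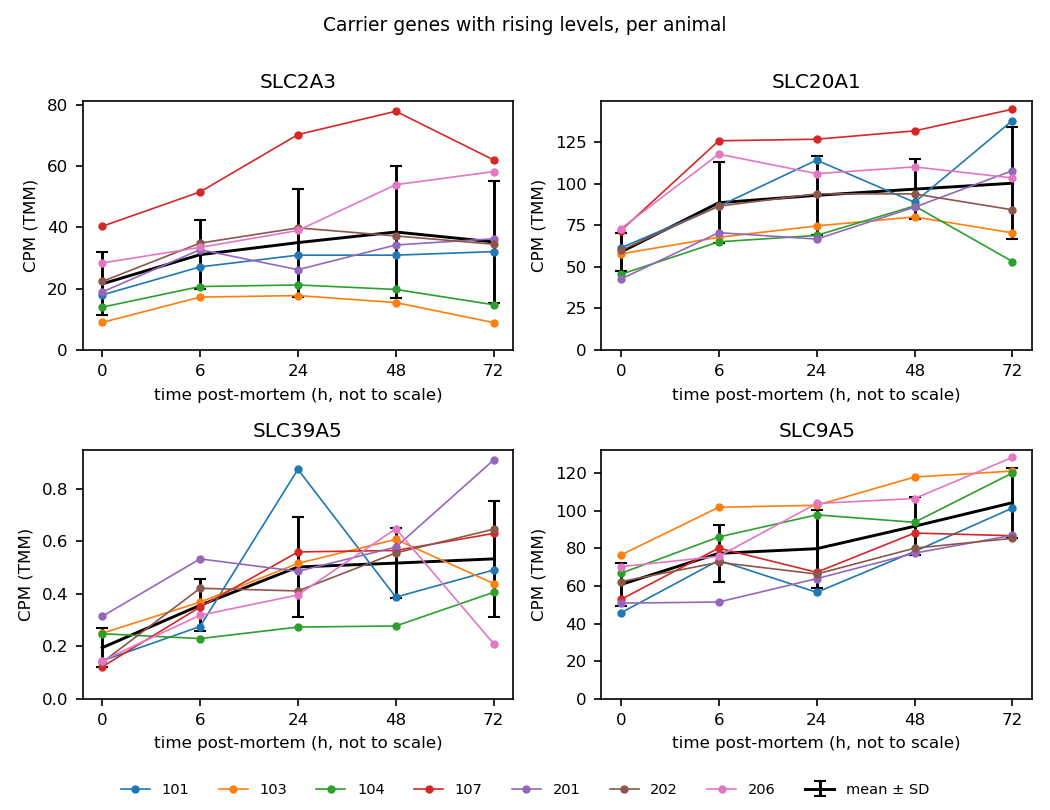
CPM of SLC2A3, SLC20A1, SLC39A5 and SLC9A5 in each of 7 animals (coloured lines) at 5 time points, with the mean and SD over animals in black. SLC2A3, SLC20A1 and SLC39A5 stand higher from 6 or 24 h onward, and SLC39A5 lies under 1 CPM throughout. The mean of SLC9A5 goes from 60.8 CPM at 0 h to 104 CPM at 72 h.

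All 6 genes for carriers of monocarboxylates and related acids were called lower at 48 and at 72 h, with a median log2 fold change of -1.07 and -1.19. SLC16A7 (ENSBTAG00000021287) encodes MCT2, a lactate and pyruvate transporter. Its lowest, median and highest levels were 2.86, 5.92 and 15.6 CPM at 0 h, 3.44, 4.4 and 18.5 CPM at 6 h, and 1.46, 2.71 and 7.5 CPM at 24 h. At 48 h they were 1.39, 1.75 and 7.24 CPM, and at 72 h 1.21, 1.92 and 3.65 CPM. The ranges overlapped, mostly through animal 104, which was highest at 0, 24, 48 and 72 h, but all 7 animals were below 0 h from 24 h onward. Against 0 h the log2 fold change was -1.13 ± 0.27 at 24 h and -1.56 ± 0.28 at 72 h. Between 6 and 24 h SLC16A7 fell by 1.15 on the log2 scale (± 0.27, 6 of 7 animals, adjusted p = 0.042 by edgeR's quasi-likelihood test), a call that was lost without the 6 h library of animal 206 (-0.78) and without any 1 animal other than 101. Its 24 h call against 0 h was lost without animal 107 (-0.93).

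SLC13A3 (ENSBTAG00000000873) encodes a sodium-coupled dicarboxylate transporter. It was at 0.23, 1.05 and 1.43 CPM at 0 h, 0.165, 0.466 and 2.29 CPM at 6 h, and 0.0729, 0.336 and 0.659 CPM at 24 h. At 48 h it was 0.106, 0.226 and 0.599 CPM, and at 72 h 0.14, 0.354 and 1.05 CPM. Against 0 h, SLC13A3 stood at -1.73 ± 0.31 on the log2 scale at 24 h, -1.95 ± 0.33 at 48 h, and -1.06 ± 0.30 by 72 h. From 48 to 72 h SLC13A3 was higher in all 7 animals, by 0.89 ± 0.36 on the log2 scale, which did not pass edgeR's quasi-likelihood test (adjusted p = 0.059) but was called by DESeq2 and limma voom. It rests on 2 to 108 reads per library.

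SLC16A7 and SLC13A3 were called lower at 24 h, as were 8 of the 11 named adipocyte genes. At 24 h animal 206 was highest for SLC13A3 (0.659 CPM) and for ADIPOQ (0.747 CPM), but lowest in adipocyte sum (414 CPM). That sum weighs the genes with high levels most, such as LPL and PLIN4, with means of 176 and 112 CPM at 24 h. From 48 to 72 h the median of SLC13A3 went from 0.226 to 0.354 CPM, and the median adipocyte sum from 438 to 351 CPM. The named adipocyte genes did not move together in that interval. The mean of ADIPOQ went from 0.109 to 0.131 CPM, and that of LPL from 157 to 138 CPM. The summed level of the 11 named adipocyte genes was 739 to 2105 CPM at 0 h (median 1429), 436 to 4297 CPM at 6 h (median 1080) and 414 to 588 CPM at 24 h (median 521). ADIPOQ (adiponectin) and LEP (leptin), which define the cell type, went from 25.4 ± 15.2 and 5.02 ± 3.47 CPM at 0 h to 0.282 ± 0.212 and 0.0621 ± 0.0653 CPM at 24 h. The 6 h core of animal 206 had the highest adipocyte sum of all libraries, 4297 CPM, and also the highest 6 h values of SLC16A7, SLC13A3, SLC16A9 (1.29 CPM), SLC38A4 (2.54 CPM) and SLC6A2 (2.69 CPM). In that core 12 of the 48 carrier genes (25%) were highest of the 7 cores at 6 h, beside 15.2% of all genes tested, and 6 (12.5%) were over 2-fold the median of the other 6 animals, beside 2.71% of all genes. The part of adipocyte RNA in these carrier values was not tested. Without that core the 24 h values against 0 h were -1.16 for SLC16A7 and -1.74 for SLC13A3, and both calls were kept.

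**Figure D3:**
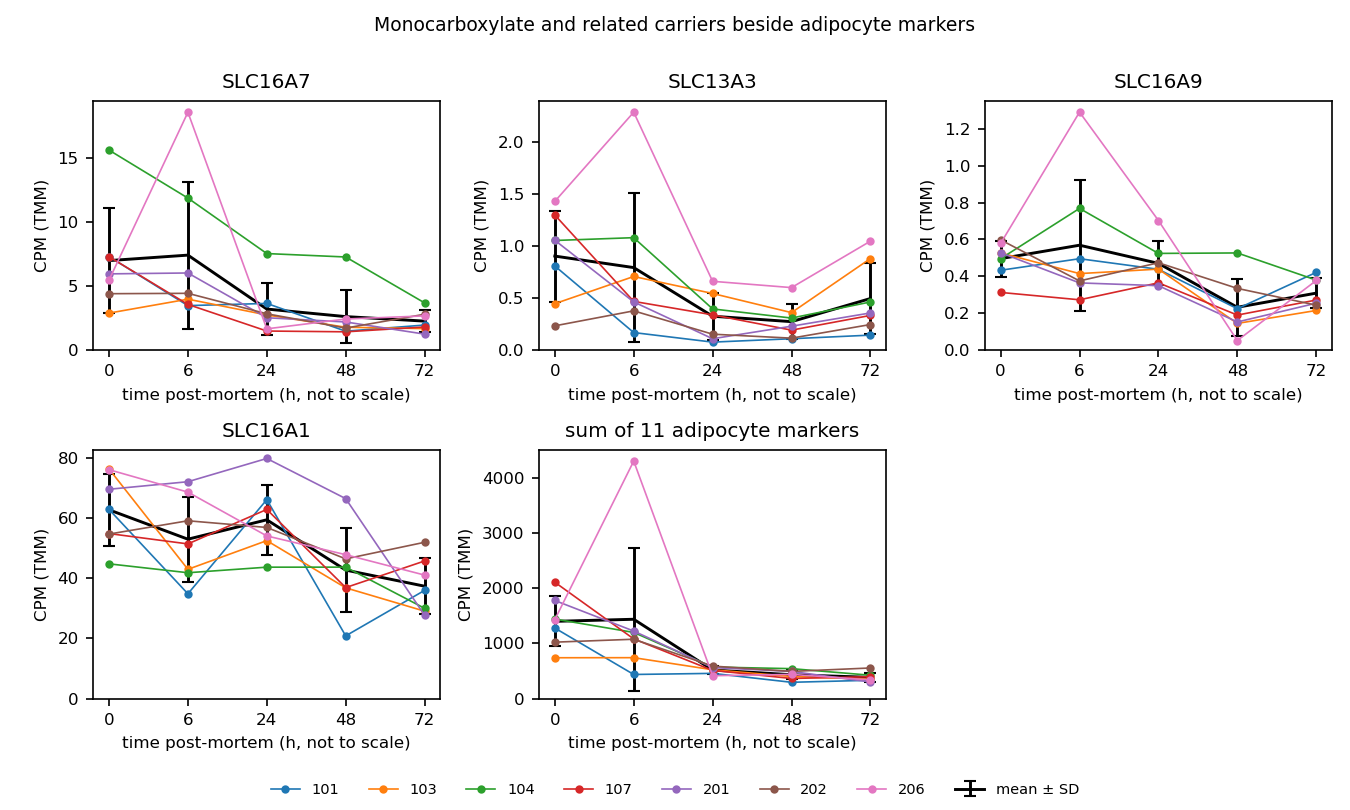
CPM of 4 carrier genes of the monocarboxylate group and the summed CPM of 11 adipocyte markers in each of 7 animals (coloured lines) at 5 time points, with mean and SD in black. The 6 h core of animal 206 is highest for SLC16A7, SLC13A3, SLC16A9 and the adipocyte sum, but not for SLC16A1.

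SLC16A1, SLC16A9 and SLC16A10 were not called at 24 h. SLC16A1 (ENSBTAG00000015107) encodes MCT1, a lactate and pyruvate transporter of the plasma membrane. Its lowest, median and highest levels were 44.8, 62.8 and 76.3 CPM at 0 h, 34.8, 51.4 and 72 CPM at 6 h, and 43.6, 56.8 and 79.8 CPM at 24 h. At 48 h they were 20.8, 43.7 and 66.4 CPM, and at 72 h 27.7, 35.9 and 51.9 CPM. The ranges overlapped, with all 7 animals below their 0 h level at 48 and 72 h. At 24 h its log2 fold change was -0.09 ± 0.16, at 48 h -0.59 ± 0.16, close to the threshold, and at 72 h -0.74 ± 0.16. The 48 h call was lost without animal 101, 103, 107 or 206, with DESeq2 size factors or test, and with the CPM filter. SLC16A10, the aromatic amino acid transporter gene TAT1, fell by 0.75 ± 0.18 between 24 and 48 h (6 of 7 animals, adjusted p = 0.0073), and SLC16A9, the gene of MCT9, fell by 0.90 ± 0.26 (6 of 7 animals, adjusted p = 0.018), both by edgeR's quasi-likelihood test. At 72 h SLC16A10 was at 0.423 ± 0.276 CPM against 1.21 ± 0.256 CPM at 0 h, and SLC16A9 at 0.308 ± 0.0818 against 0.496 ± 0.0976 CPM.

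Of the 5 mitochondrial SLC25 genes, 4 were called lower and 1 higher at 72 h. SLC25A46 (ENSBTAG00000009667) encodes a protein of the outer mitochondrial membrane linked to mitochondrial shape rather than to transport. Its lowest, median and highest levels were 24.9, 32.4 and 36.5 CPM at 0 h, 25.9, 30.4 and 36.2 CPM at 6 h, and 13.4, 26.1 and 30.8 CPM at 24 h. At 48 h they were 8.38, 13.5 and 23 CPM, and at 72 h 4.98, 6.52 and 16.5 CPM. The 48 and 72 h values lay wholly below those at 0 h. The log2 fold change at 72 h was -2.08 ± 0.19, the most negative of the 48 genes. SLC25A46 fell by 0.76 ± 0.18 between 24 and 48 h (adjusted p = 0.0066) and by 0.97 ± 0.19 between 48 and 72 h (adjusted p = 0.00092), in all 7 animals in both intervals, by edgeR's quasi-likelihood test.

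SLC25A30 (ENSBTAG00000016529) encodes a carrier of the inner mitochondrial membrane. It was at 49.8, 61.6 and 72.1 CPM at 0 h, 41.4, 53.5 and 66.4 CPM at 6 h, and 28.3, 50.3 and 57.6 CPM at 24 h. At 48 h it was 19.9, 30 and 44.4 CPM, and at 72 h 14.9, 18.5 and 38.5 CPM. Again the 48 and 72 h values lay below all 0 h values. Its log2 fold change was -0.92 ± 0.15 at 48 h and -1.58 ± 0.15 at 72 h, and it fell by 0.66 ± 0.15 between 48 and 72 h (7 of 7 animals, adjusted p = 0.0025 by edgeR's quasi-likelihood test).

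SLC25A32 (ENSBTAG00000033902) encodes a mitochondrial carrier of folate and FAD. Its levels were 10, 11 and 12.5 CPM at 0 h, 9.83, 10.5 and 12.2 CPM at 6 h, 7.61, 10.6 and 11.9 CPM at 24 h, 5.39, 9.63 and 10.8 CPM at 48 h, and 3.89, 7.33 and 9.44 CPM at 72 h. It was called at 72 h alone, at -0.69 ± 0.10, where the values did not overlap those at 0 h. SLC25A15 (ENSBTAG00000011647), the gene of the ornithine carrier of the urea cycle, was at 2.14, 3.23 and 4.52 CPM at 0 h, 2.21, 3.49 and 4.09 CPM at 6 h, 1.85, 3.03 and 3.46 CPM at 24 h, 1.57, 1.82 and 2.92 CPM at 48 h, and 0.879, 1.6 and 2.62 CPM at 72 h. Its values at 72 h overlapped those at 0 h, but all 7 animals were lower, and the log2 fold change was -1.01 ± 0.18. SLC25A41 (ENSBTAG00000020017), of the ATP-magnesium and phosphate carrier group, went the other way. It was at 0.322, 0.37 and 0.665 CPM at 0 h, 0.427, 0.655 and 1.02 CPM at 6 h, 0.438, 0.659 and 0.761 CPM at 24 h, 0.429, 0.729 and 1.09 CPM at 48 h, and 0.709, 0.891 and 1.26 CPM at 72 h. The 72 h values of SLC25A41 lay above all 0 h values, with a log2 fold change of 1.03 ± 0.19. It rests on 7 to 94 reads per library, and a filter at 1 CPM in 7 samples removed it.

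**Figure D4:**
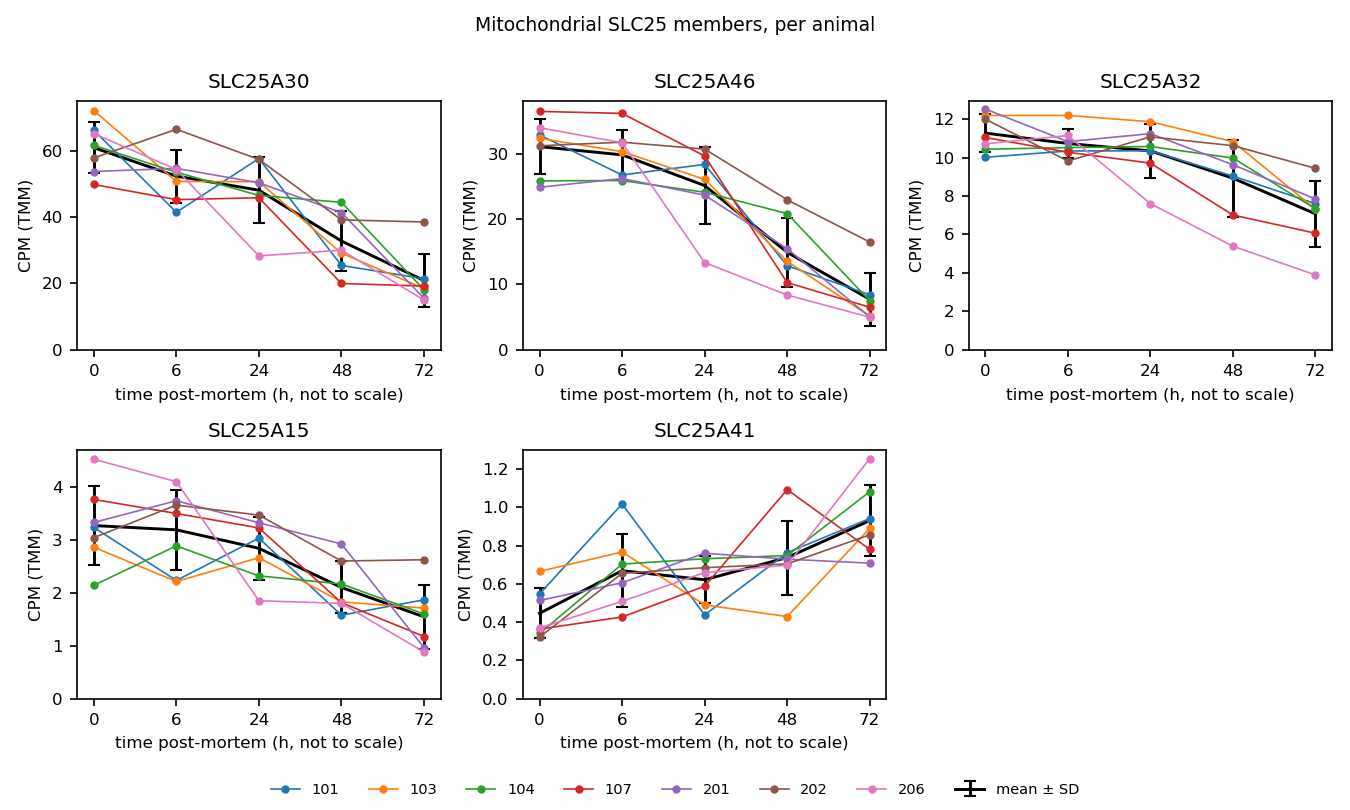
CPM of the 5 mitochondrial SLC25 genes in each of 7 animals (coloured lines) at 5 time points, with mean and SD in black. For SLC25A30, SLC25A46, SLC25A32 and SLC25A15, animal 206 is lowest at 24 h and animal 202 highest at 72 h, and SLC25A41 moves upward at about 1 CPM or less.

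Set beside each other, the SLC25 genes had a median log2 fold change of -1.01 at 72 h, the 31 plasma membrane genes -0.77 (9 higher, 22 lower) and the 12 intracellular genes -1.07 (2 higher, 9 lower). These are descriptions of genes chosen for their change, the classes were not tested against each other, and the SLC25 class holds 5 genes. The summed level of the SLC25 genes was 107 ± 9.07 CPM at 0 h and 38.1 ± 13.9 CPM at 72 h. That of the plasma membrane genes was 399 ± 33.4 CPM at 0 h, 446 ± 52.9 CPM at 6 h, 438 ± 36.3 CPM at 24 h, 398 ± 27.8 CPM at 48 h and 366 ± 50.4 CPM at 72 h. The plasma membrane sum stayed near its level at 0 h while 22 of its 31 genes were called lower, and the 9 called higher included SLC20A1 and SLC9A5, at 58.7 ± 11.7 and 60.8 ± 11.3 CPM at 0 h. A class sum weighs long and highly expressed genes most, since CPM is not corrected for gene length. The intracellular sum was 61.6 ± 3.71 CPM at 0 h and 36 ± 4.6 CPM at 72 h.

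Ion carriers were the group with the most members, 10, of which 2 were higher and 7 lower at 72 h (median log2 fold change -1.11). The lower ones included SLC12A2, the sodium, potassium and chloride cotransporter gene NKCC1. Its lowest, median and highest levels were 45.9, 56.3 and 62.5 CPM at 0 h, 25.4, 48.7 and 55 CPM at 24 h, 12.2, 37.6 and 49 CPM at 48 h, and 8.41, 16.1 and 29.4 CPM at 72 h. All of the 72 h values lay below the 0 h values, and SLC12A2 fell by 0.89 ± 0.19 between 48 and 72 h (7 of 7 animals, adjusted p = 0.0015 by edgeR's quasi-likelihood test). SLC4A4, the sodium bicarbonate cotransporter gene NBCe1, went from 9.77 ± 1.17 CPM at 0 h to 6.37 ± 2.1 CPM at 48 h and 3.1 ± 1.45 CPM at 72 h. Its drop of the last interval was 0.99 ± 0.20 (7 of 7 animals, adjusted p = 0.0012 by the same edgeR test).

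The sodium and proton exchangers, which carry protons out of the cell or out of its compartments, did not move as 1 group. SLC9A5 was called higher, as given above, and SLC9A2 lower. SLC9A2 (NHE2) was at 36.4, 44.8 and 63.6 CPM at 0 h and 3.68, 12.5 and 46.6 CPM at 72 h, a range that overlapped through animal 202. SLC9A2 fell by 0.91 ± 0.25 between 48 and 72 h, in all 7 animals (edgeR's quasi-likelihood test, adjusted p = 0.0068). SLC9A7, the exchanger NHE7 of the trans-Golgi network, was at 0.286 ± 0.135 CPM at 0 h, 0.15 ± 0.096 CPM at 48 h and 0.204 ± 0.0794 CPM at 72 h.

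SLC26A7, an anion transporter gene, and SLC26A2, a sulfate transporter gene, were at 1.96 ± 0.353 and 2.06 ± 0.722 CPM at 0 h and at 0.879 ± 0.377 and 1.09 ± 0.525 CPM at 72 h. They fell in different intervals, SLC26A2 by 0.61 ± 0.18 between 24 and 48 h (adjusted p = 0.017) and SLC26A7 by 0.62 ± 0.20 between 48 and 72 h (adjusted p = 0.017), each in all 7 animals by edgeR's quasi-likelihood test.

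Genes of the nucleotide sugar and acetyl-CoA group, whose products feed glycosylation and acetylation in the endoplasmic reticulum and Golgi apparatus, were all lower at 72 h. For all 5 the 72 h values lay below every 0 h value. SLC35D1 (ENSBTAG00000005445), a nucleotide sugar transporter gene, was at 3.62, 4.05 and 5.24 CPM at 0 h, 2.76, 3.49 and 5.19 CPM at 6 h, 1.76, 3.22 and 4.01 CPM at 24 h, 1.05, 2.15 and 2.73 CPM at 48 h, and 0.962, 1.09 and 2.46 CPM at 72 h. It reached a log2 fold change of -1.76 ± 0.15, in near equal steps of -0.67 ± 0.15 (adjusted p = 0.004) and -0.67 ± 0.16 (adjusted p = 0.0027) in the last 2 intervals by edgeR's quasi-likelihood test. SLC35E2 went from 6.18 ± 1.07 CPM at 0 h to 3.13 ± 0.482 CPM at 48 h and 1.85 ± 0.59 CPM at 72 h, and SLC35B4 from 0.807 ± 0.217 to 0.449 ± 0.155 and 0.267 ± 0.0902 CPM. SLC35E1 was at 11.4 ± 1.15 CPM at 0 h and 5.57 ± 1.68 CPM at 72 h. SLC33A1 (ENSBTAG00000014318), the acetyl-CoA transporter gene of the endoplasmic reticulum, was called at 72 h alone. Its levels were 16.9, 18.5 and 20.2 CPM at 0 h, 14.3, 16.4 and 20.3 CPM at 6 h, 14.8, 17.3 and 21 CPM at 24 h, 12, 14.3 and 16.3 CPM at 48 h, and 9.73, 11.5 and 14.5 CPM at 72 h. SLC33A1 was 0.777 of its 0 h level at 48 h and 0.664 at 72 h.

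Of 7 amino acid carrier genes, 2 were higher and 5 lower at 72 h. SLC1A5 (ENSBTAG00000013577) encodes ASCT2, a transporter of neutral amino acids that takes up glutamine. It was at 5.99, 9.29 and 11.1 CPM at 0 h, 6.51, 8.95 and 13.6 CPM at 6 h, 6.39, 7.95 and 10.7 CPM at 24 h, 4.27, 7.01 and 9.35 CPM at 48 h, and 3.03, 5.4 and 6.79 CPM at 72 h. All 7 animals were lower at 72 h, at a log2 fold change of -0.81 ± 0.11, but the ranges overlapped. SLC38A4 (ENSBTAG00000014197) encodes SNAT4, another neutral amino acid transporter. Its levels were 0.675, 0.929 and 2.5 CPM at 0 h, 0.413, 1.03 and 2.54 CPM at 6 h, 0.476, 0.852 and 1.54 CPM at 24 h, 0.226, 0.644 and 1.61 CPM at 48 h, and 0.126, 0.241 and 1.58 CPM at 72 h, with animal 202 far above the others at the end. Its log2 fold change at 72 h was -1.47 ± 0.34, with 6 of 7 animals lower.

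Both cationic amino acid transporter genes were lower at 72 h, SLC7A1 (CAT1) at -0.94 ± 0.11 and SLC7A2 (CAT2) at -0.99 ± 0.20. SLC7A1 was called from 48 h, whereas SLC7A2, at 7.34 ± 1.87 CPM at 0 h, stood at 8.6 ± 2.6 CPM at 24 h and then fell by 0.72 ± 0.19 by 48 h (7 of 7 animals, adjusted p = 0.013 by edgeR's quasi-likelihood test). SLC36A1, a proton-coupled amino acid transporter gene of lysosomes, went from 1.34 ± 0.241 to 0.522 ± 0.134 CPM with no overlap. The 2 genes called higher were SLC38A3, the glutamine transporter gene SNAT3, at 2.26 ± 0.445 CPM at 0 h and 3.76 ± 0.779 CPM at 72 h, and SLC7A10, the gene of the small neutral amino acid transporter Asc-1, at 2.54 ± 0.698 and 3.99 ± 0.883 CPM. Each was above 0 h in all 7 animals at 48 and 72 h, although the ranges overlapped.

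The other sugar carriers did not follow SLC2A3. SLC2A12, the glucose transporter gene GLUT12, was at 7.56 ± 1.84 CPM at 0 h, 7.82 ± 2.93 CPM at 24 h and 4.77 ± 2.8 CPM at 72 h, with a log2 fold change of -0.76 ± 0.13 and 6 of 7 animals lower. Its highest value at 72 h, 10.3 CPM in animal 202, was above every 0 h value. SLC37A2 (ENSBTAG00000016704), a sugar phosphate exchanger gene of the endoplasmic reticulum, was at 0.37, 1.18 and 1.61 CPM at 0 h, 0.552, 0.936 and 1.5 CPM at 6 h, 0.206, 1.02 and 1.5 CPM at 24 h, 0.215, 0.754 and 0.855 CPM at 48 h, and 0.163, 0.46 and 0.921 CPM at 72 h. Its log2 fold change at 72 h was -1.11 ± 0.25, with 6 of 7 animals lower and the ranges overlapping.

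Among metal carriers, the zinc genes split. SLC39A5 and SLC39A2, the genes of ZIP5 and ZIP2, were higher at 48 and 72 h, and SLC39A6 (ZIP6) and SLC39A9 (ZIP9) lower at 72 h. SLC39A2 was at 0.274 ± 0.0817 CPM at 0 h, 0.386 ± 0.108 CPM at 24 h, 0.605 ± 0.165 CPM at 48 h and 0.524 ± 0.178 CPM at 72 h. It rose by 0.65 ± 0.21 between 24 and 48 h (6 of 7 animals, adjusted p = 0.029 by edgeR's quasi-likelihood test). The count of genes that rose in that interval was 0 without animal 103, 107, 201 or 202 and with library totals alone. SLC39A9 (ENSBTAG00000017811) was at 11.3, 12.1 and 13.8 CPM at 0 h, 9.77, 11.4 and 13.3 CPM at 6 h, 10.2, 11 and 12.2 CPM at 24 h, 8.21, 9.44 and 10.7 CPM at 48 h, and 7.07, 8.15 and 9.09 CPM at 72 h. All of its 48 and 72 h values were below all 0 h values, although the fold at 48 h, 0.75, was too small for a call. SLC39A6 went from 5.28 ± 0.357 to 3.36 ± 0.693 CPM without overlap. The magnesium transporter gene SLC41A2 was at 1.65 ± 0.345 CPM at 0 h and 1.03 ± 0.167 CPM at 72 h.

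The last group, of carriers of vitamins, nucleosides, lipids and amines, was the 1 group with more genes called higher (4) than lower (3) at 72 h. SLC27A5, a bile acid and very long chain acyl-CoA synthetase gene, went from 2.01 ± 0.355 CPM at 0 h to 3.82 ± 1.16 CPM at 72 h without overlap. SLC28A1 (the nucleoside transporter CNT1) was at 0.16 ± 0.0754 and 0.259 ± 0.122 CPM, and SLC46A2, of the family that holds the folate transporter, at 1.22 ± 0.699 and 1.83 ± 1.04 CPM. SLC45A2, the gene of a melanosome transporter of pigment cells, was at 0.509 ± 0.0634 CPM at 0 h, 0.57 ± 0.142 CPM at 48 h and 0.778 ± 0.142 CPM at 72 h. Its difference between 48 and 72 h was 0.48 ± 0.14, in 7 of 7 animals (adjusted p = 0.0086 by edgeR's quasi-likelihood test), under the fold threshold.

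SLC19A2 (ENSBTAG00000020266) encodes the thiamine transporter THTR1. It was at 5.65, 7.15 and 8.51 CPM at 0 h, 6.08, 7.12 and 8.24 CPM at 6 h, 4.7, 6.97 and 9.07 CPM at 24 h, 3.54, 6.18 and 8.27 CPM at 48 h, and 2.18, 3.9 and 7.99 CPM at 72 h. All 7 animals were below 0 h at 72 h, at a log2 fold change of -0.78 ± 0.15. SLC6A2 (ENSBTAG00000003353) encodes NET, the noradrenaline transporter of sympathetic nerve endings. Its levels were 0.736, 1.65 and 2.57 CPM at 0 h, 0.749, 1.26 and 2.69 CPM at 6 h, 0.728, 0.826 and 2.3 CPM at 24 h, 0.426, 0.654 and 1.55 CPM at 48 h, and 0.188, 0.406 and 0.921 CPM at 72 h. SLC6A2 was lower in all 7 animals at 48 and 72 h, and its log2 fold change was -1.73 ± 0.27 at 72 h. TH, the gene of tyrosine hydroxylase in sympathetic neurons, moved the other way. TH was called higher at 6, 24, 48 and 72 h. It was at 0.546 ± 0.22 CPM at 0 h, 1.05 ± 0.296 CPM at 6 h and 1.32 ± 0.376 CPM at 72 h. SLC27A6, the fatty acid transport protein gene FATP6, had a log2 fold change of -0.64 ± 0.21 at 72 h, and animal 101 was far above the rest at 0 h (21.9 CPM, median 5.16) and at 72 h (12.7 CPM, median 3.3).

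Of 13 genes whose products work with carriers (chaperones, the mitochondrial pyruvate carrier and pores, fatty acid binding, the sodium pump), 2 had a symbol in the list used here, and both were called higher at 72 h. Since that list holds DE genes, partner genes without a change are not seen. FABP3, the fatty acid binding protein of muscle, went from 126 ± 29 to 189 ± 47 CPM, and FXYD1, a regulator of the sodium pump, from 86 ± 9.84 to 147 ± 18.7 CPM.

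The time course varied between animals. Over the 36 carrier genes with a negative log2 fold change at 72 h, the median log2 change from an animal's own 0 h core was -0.67 at 24 h in animal 206 and -0.05 to -0.18 in the other 6. At 48 h it ran from -0.21 in animal 104 to -1.16 in animal 206, and at 72 h from -0.51 in animal 202 to -1.38 in animal 201. These differences were not particular to carrier genes. Over all 2256 genes called lower at 72 h, the median at 24 h was -0.66 in animal 206 and -0.01 to -0.18 in the other 6. At 72 h it was -0.50 in animal 202. Animal 202 was highest of the 7 at 72 h for 21 of the 36 carrier genes (58.3%), beside 63.7% of all genes called lower at 72 h and 23.2% of all genes tested. For the 12 genes with a positive log2 fold change the medians at 72 h were 0.47 in animal 206 to 0.82 in animal 101. No test was made of the animals.

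**Figure D5:**
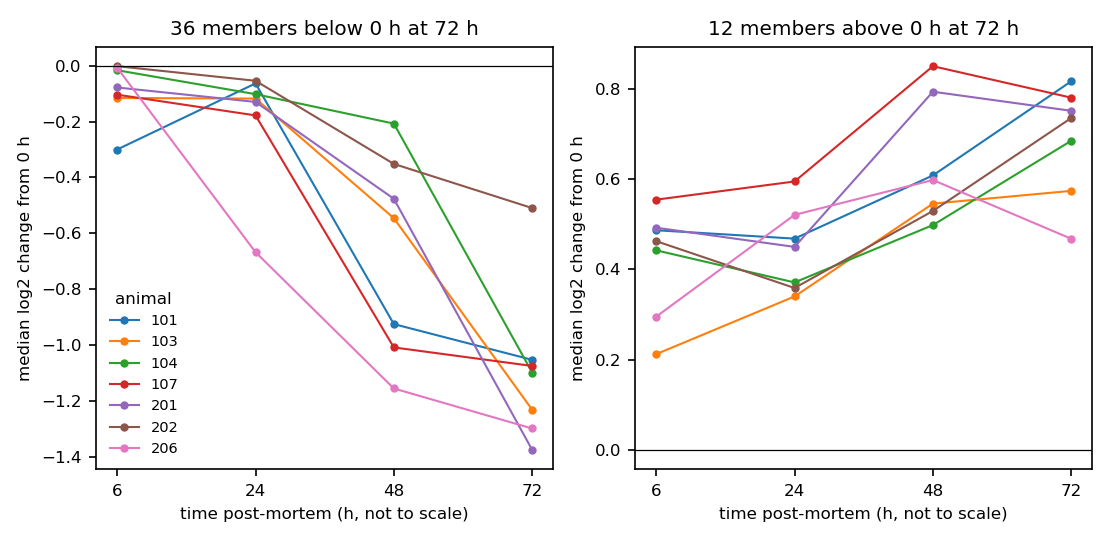
Median log2 change from the animal's own 0 h core at the 4 later time points, for the 36 carrier genes below their 0 h level at 72 h (left) and the 12 above it (right), with 1 line per animal. On the left animal 206 is lowest at 24 h (-0.67) and animal 202 highest at 72 h (-0.51), while on the right all animals lie above 0 at every time point.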

How the data were processed

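Muscle mRNA was measured by paired-end RNA-Seq in 35 samples. The authors trimmed reads with Trimmomatic (0.39), mapped them with STAR (2.7.0f) to ARS-UCD1.2, counted them per gene with featureCounts (1.6.4) and Ensembl release 95, and deposited raw counts per gene and sample. The sources call the counting strand specific but give the unstranded setting. The counts used here are labelled as those of the reverse strand. Their library totals, 20568418 to 104275821, match the range the paper gives for reads on the sense strand. By symbol in RefSeq, on another build, 47 of the 48 carrier genes were found and 9 overlap another protein coding gene, among them SLC16A7, SLC16A9, SLC25A15, SLC26A2, SLC2A12, SLC36A1, SLC41A2 and SLC9A7. Strand was not considered in that overlap, and its effect on the counts was not tested.

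Counts were analysed in edgeR (4.0.16, R 4.3.3) with filterByExpr (minimum count 10, grouped by time point), TMM factors of 0.846 to 1.11, a quasi-likelihood fit with the animal as a block, and a prior count of 2 for log2 values per sample. The model was tested on simulated data. Alternatives used DESeq2 (1.42.0), limma voom (3.58.1), other scaling and filters, no block, 14 samples per contrast, the FDR alone, each animal left out and, chosen after seeing the data, the 6 h library of animal 206 left out. The animal pairs the samples, since its 5 cores come from 1 carcass, and deviations from the time point means had a median r of 0.58 in 70 pairs of the same animal (0.29 to 0.77) and -0.12 in 525 pairs of different animals.

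Symbols came from the supplementary list (3106 genes), of which only IDs, symbols and sheet names were read. Genes outside it have no symbol here, so the contrast of SLC25 and plasma membrane genes could not be extended to carriers that are not DE, and the list of genes downregulated at 72 h was used here only in part, whereas the list of upregulated genes was used whole. The carrier genes, their substrate groups and the marker lists (muscle fibre, adipocyte, endothelial, fibroblast, macrophage, T and NK cell, erythroid, melanocyte, sympathetic neuron, transport partners) were chosen with earlier results of these data known. Values in every time point are given for genes listed at 6 or 24 h, all SLC25 genes and, per substrate group, the gene with the highest mean CPM and that with the largest change at 72 h, and the further values of other carrier genes, such as SLC9A5 and SLC12A2, were added after they were seen. Values of some genes are not reported here. CPM is not corrected for gene length, so levels are not ranked between genes in the results.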

Additional observations from a re-analysis of the deposited data

Results flagged for a closer look

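In 19 carrier genes given at every time point, 95 groups of 7 CPM values were examined for an animal far from the others, by the gap to its neighbour as a share of the group's range and with Dixon's 95% critical value. Chance alone sets apart about 1 in 20 groups, and 13 groups in 8 genes stood out here.

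Of these, 4 concern animal 202 at 72 h, the highest of the 7 each time. It held SLC25A30 at 38.5 CPM (next 21.4 CPM), SLC25A46 at 16.5 CPM (next 8.42 CPM), SLC38A4 at 1.58 CPM (next 0.352 CPM) and SLC35D1 at 2.46 CPM (next 1.18 CPM). Another 2 concern the 6 h core of animal 206, the core with the highest adipocyte sum, which was highest for SLC13A3 at 2.29 CPM (next 1.08 CPM) and SLC6A2 at 2.69 CPM (next 1.35 CPM).

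The 24 h core of the same animal 206 was lowest for SLC25A30 at 28.3 CPM (next 45.8 CPM), SLC25A46 at 13.4 CPM (next 23.7 CPM) and SLC35D1 at 1.76 CPM (next 3.13 CPM). Animal 104 stood above the others for SLC16A7 at 0 h (15.6 CPM, next 7.27 CPM), 24 h (7.5 CPM, next 3.61 CPM) and 48 h (7.24 CPM, next 2.39 CPM). Animal 107 was highest for SLC2A3 at 24 h, at 70.4 CPM with the next animal at 39.9 CPM.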

How the results depend on the processing

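Fold changes were recomputed gene by gene for the 19 carrier genes examined in the section above, and none of their called values changed direction. Of these 2114 recomputed fold changes, 2026 kept their side of the threshold, 53 lost a call and 35 gained one. The other carrier genes, such as SLC12A2, SLC9A5 and SLC39A2, entered the alternatives only through counts and class medians. Without the replicate block of the animal, 0 carrier genes were called at 6 h, 1 was higher and 0 lower at 24 h, and 0 were called between 6 and 24 h or, in either direction, between 24 and 48 h. Library totals alone gave 5 higher at 72 h, of them 3 plasma membrane genes, 0 lower between 6 and 24 h, and 0 higher and 14 lower between 24 and 48 h, with the median of all genes at -0.16 for 72 h. A filter that kept genes at 1 CPM or more in 7 or more samples left 4 higher at 48 h, 7 higher at 72 h (0 of them SLC25), 0 lower between 6 and 24 h, and 0 higher and 5 lower between 24 and 48 h. The FDR alone gave 4 higher at 6 h, 5 higher at 24 h, 3 higher and 18 lower between 24 and 48 h, and 1 higher and 20 lower between 48 and 72 h. DESeq2 gave 2 higher at 6 h, 2 lower between 6 and 24 h and 1 higher between 48 and 72 h. With limma voom these last counts were also 2 and 1. Fits of 14 samples gave 2 higher at 6 h, 0 lower between 6 and 24 h and 1 higher between 48 and 72 h. Without the 6 h library of animal 206, an alternative chosen after seeing the data, 0 were lower between 6 and 24 h. Leaving out each animal gave 0 to 1 higher at 6 h (0 without 201), 1 to 3 lower at 24 h (1 without 107), 0 to 2 lower between 6 and 24 h, 0 to 1 higher and 2 to 12 lower between 24 and 48 h (3, 5 and 2 without 101, 103 and 107), and 0 to 1 higher between 48 and 72 h. At 48 h it gave 18 to 26 lower, and at 72 h 9 to 12 higher and 32 to 35 lower. The cause of these shifts was not tested. Depth limits the 13 genes under 1 CPM.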
